A study of Mus musculus with 9 samples.

Results

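The mitochondrial ribosomal protein genes are the 76 protein-coding genes whose symbols begin with Mrpl or Mrps and a number, 47 named for the large subunit and 29 for the small subunit of the mitochondrial ribosome, out of 19305 genes listed in either of 2 deposited tables. They were followed in RNA of LLC1, a lung cancer cell line from mouse (Lewis lung carcinoma), that had spent 24 h in direct contact with T cells labelled Th9, Th17 or Th0, with 1 T cell per LLC1 cell. Each group had 3 libraries. The T cells had been made in culture, and CD4+ cells were sorted away before the RNA of the remaining cells was isolated. LLC1 cells and T cells were present in every group, no library of LLC1 cells alone was analysed here, and the Th0 libraries serve as the reference of both comparisons. Whether libraries of a group came from separate cultures is not stated in the labels, so p-values measure only the spread between these libraries. By its title, the series asks about epithelial-mesenchymal transition and spreading of lung cancer cells, and the ribosome of mitochondria is one of the housekeeping systems its tables also record.

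The mitochondrial ribosome translates the few mRNAs of mitochondrial DNA, all of which encode membrane subunits of the oxidative phosphorylation complexes. Its RNA comes from mitochondrial DNA, while all its proteins are encoded in the nucleus, made in the cytoplasm and imported. Some of these proteins have bacterial relatives and keep the bacterial numbers, and others are found in mitochondrial ribosomes and not in bacterial ones. Symbols and structures do not match everywhere. In human ribosome structures the products of MRPS18A and MRPS30 sit in the large subunit, and the product of MRPS36 is now known as a part of the 2-oxoglutarate dehydrogenase complex. The 3 genes are counted below with the small subunit, as their symbols have it.

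The members lie on 17 chromosomes, with 10 on chromosome 11 and 8 on chromosome 17. Of the 76, 23 have the start of another protein-coding gene within 1000 bp of their own start, on the opposite strand and read the other way. For Mrpl21, Mrpl27, Mrpl36, Mrpl44 and Mrps7 that start lies inside the member, so the genes overlap at their starts. In mouse promoter sequences from RefSeq (GRCm38.p6), 67 members had an entry, with 73 promoters of 250 bases before RefSeq's start. Their median GC content was 58.4% and their median number of CpG dinucleotides was 17, against 52.4% and 6 in all 32851 promoters of that table. The core of the motif of NRF1 (GCATGCGC, read on both strands), a factor known for nuclear genes of mitochondria, stood in 11% of members' promoters and in 2.26% of all promoters. An ETS motif (CCGGAAGT, both strands), the kind bound by GABP, stood in 13.7% of members' promoters and in 2.88% of all. A YY1 motif (AAGATGGC, both strands) stood in 5.48% of members' promoters and in 1.56% of all. These are matches of letters and not measured binding.

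The promoters printed next belong to members whose mRNA was lower (Mrpl41, Mrps15, Mrps26) or higher (Mrpl45, Mrps2) in Th9 cocultures, and to Mrpl9, which carries the NRF1 core. Each runs 5′ to 3′ towards the gene, and capitals mark matches of the motifs above, the ETS motif read on the other strand in Mrps26 and the NRF1 core on both strands, overlapping, in Mrpl9. They lie at chr2:24975099-24975348 (minus strand, Mrpl41), chr4:126046678-126046927 (plus, Mrps15), chr2:130563507-130563756 (plus, Mrps26), chr11:97315466-97315715 (plus, Mrpl45), chr2:28467816-28468065 (plus, Mrps2) and chr3:94443086-94443335 (plus, Mrpl9). In Mrps15, Mrps26 and Mrpl9 the stretch reaches past the start of the gene as the deposited tables give it. The Mrps26 match begins at that start (position 130563742), inside the gene, while the Mrpl9 match lies before the start of Mrpl9. The stretches of Mrpl41, Mrps15, Mrpl45 and Mrps2 hold no match to any of the motifs.
Mrpl41: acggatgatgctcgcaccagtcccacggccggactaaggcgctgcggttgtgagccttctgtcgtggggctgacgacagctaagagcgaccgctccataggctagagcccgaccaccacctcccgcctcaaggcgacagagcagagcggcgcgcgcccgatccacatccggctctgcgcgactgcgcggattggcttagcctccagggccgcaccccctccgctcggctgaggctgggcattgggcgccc
Mrps15: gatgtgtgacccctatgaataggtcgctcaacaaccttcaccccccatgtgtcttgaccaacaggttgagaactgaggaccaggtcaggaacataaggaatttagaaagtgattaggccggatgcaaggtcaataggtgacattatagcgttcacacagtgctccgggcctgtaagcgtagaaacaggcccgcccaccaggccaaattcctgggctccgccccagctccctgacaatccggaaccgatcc
Mrps26: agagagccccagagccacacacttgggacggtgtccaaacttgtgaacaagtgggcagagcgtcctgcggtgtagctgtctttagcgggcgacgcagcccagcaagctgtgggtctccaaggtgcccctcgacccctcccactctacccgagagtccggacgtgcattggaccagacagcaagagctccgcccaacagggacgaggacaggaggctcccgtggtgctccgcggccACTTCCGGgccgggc
Mrpl45: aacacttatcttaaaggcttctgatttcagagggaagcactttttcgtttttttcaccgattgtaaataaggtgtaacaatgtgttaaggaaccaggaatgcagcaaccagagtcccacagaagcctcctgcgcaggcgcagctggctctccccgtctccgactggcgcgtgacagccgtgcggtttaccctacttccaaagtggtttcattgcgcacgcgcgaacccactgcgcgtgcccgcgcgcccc
Mrps2: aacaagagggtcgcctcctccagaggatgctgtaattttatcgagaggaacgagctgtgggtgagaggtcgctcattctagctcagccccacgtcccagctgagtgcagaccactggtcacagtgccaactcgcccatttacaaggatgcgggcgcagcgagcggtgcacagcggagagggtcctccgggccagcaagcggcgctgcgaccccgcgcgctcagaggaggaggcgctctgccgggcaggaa
Mrpl9: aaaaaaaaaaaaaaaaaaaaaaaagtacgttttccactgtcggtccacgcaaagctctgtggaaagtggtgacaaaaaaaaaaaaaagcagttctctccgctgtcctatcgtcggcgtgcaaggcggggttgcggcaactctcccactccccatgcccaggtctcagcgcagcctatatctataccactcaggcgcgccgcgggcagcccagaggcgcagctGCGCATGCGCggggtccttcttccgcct

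Values are read counts per gene that the authors divided by a size factor for each library and rounded, called normalized counts below. Depth was similar in all groups, with about 13500000 to 14600000 reads in Th9 libraries, 13800000 to 17500000 in Th17 libraries and 12700000 to 15300000 in Th0 libraries. Th0 replicate 1 stood apart from the rest. In that library 31.1% of the summed values fell on mt-Rnr1, mt-Rnr2 and Gm26917, against 16.1% to 18.6% in Th9 libraries, 20.7% to 21.8% in Th17 libraries, and 16.6% and 14.9% in the other two Th0 libraries. It was also the lowest of the Th0 libraries for 48 of the 76 members and the highest for 13, in the table with Th9. The same count was not taken over all genes. Results are therefore given with and without it. That choice drew in part on the members' own values, and Th0 replicates 2 and 3 alone remain without it. Of the epithelial markers looked for in LLC1 cells, Krt18 reached 3031 to 3452 normalized counts in Th9 libraries and 3215 to 4636 in Th0 libraries. Krt8 was lower in Th9 libraries, with 956 to 1255, against 1688 to 2470 in Th0 libraries (log2 fold change -0.97, adjusted p = 0.00032), and Krt7 had 2 to 5 in Th9 libraries and 13 to 18 in Th0 libraries. Krt18 and Krt8 were the 2 tested in that table, and without Th0 replicate 1 both were lower in Th9 cocultures. Krt7 and Krt19 were too low there to be tested. Cdh1 and Epcam were also looked for and were listed in neither table as read here.

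All 76 members had a mean of at least 10 normalized counts over the 6 libraries of each table, so none was lost to the filter on low values. Their levels spanned a wide range. Per kb of exon, Mrpl52, a mitochondria-specific protein of the large subunit, had the highest level with a mean of 1439 normalized counts per kb in Th9 cocultures and 1690 in Th0 cocultures. Mrpl18, a relative of the bacterial protein that binds 5S ribosomal RNA, came next with 974 in Th9 cocultures and 1243 in Th0 cocultures. The median large subunit gene stood at 98.9 normalized counts per kb in Th9 cocultures and 101 in Th0 cocultures. Mrpl23, a relative of a bacterial protein at the exit of the peptide tunnel, was lowest with 8.53 in Th9 cocultures and 6.55 in Th0 cocultures. Small subunit genes had a narrower range. Mrps21 led them with 357 normalized counts per kb in Th9 cocultures and 443 in Th0 cocultures, the median was 100 and 105, and Mrps34 was lowest with 18.9 and 14.5 in the same groups. Exons of Mrps34 overlap those of Mapk8ip3 by 1309 bp and those of Nme3 by 763 bp, so its level can hold reads of these genes.

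Summed over the members, the large subunit came to 16767 ± 261 normalized counts in Th9 cocultures and 16862 ± 1738 in Th0 cocultures (SD, n = 3 each). For the small subunit the sums were 11424 ± 59.5 in Th9 cocultures and 11466 ± 1173 in Th0 cocultures (SD, n = 3 each). In the table with Th17, the large subunit summed to 16830 ± 170 in Th17 cocultures and 17286 ± 1734 in Th0 cocultures, and the small subunit to 11038 ± 381 and 11757 ± 1178 (SD, n = 3 each). With all libraries, the means of each pair lay closer together than the SD of Th0. Without Th0 replicate 1, whose sums were the lowest, every Th9 and Th17 library lay below both other Th0 libraries. For the large subunit Th9 libraries had 16485 to 17000, against 18200 and 17488 in those Th0 libraries, and for the small subunit 11366 to 11485, against 12055 and 12227. In the table with Th17, the large subunit had 16666 to 17005 in Th17 libraries, against 18592 and 17948, and the small subunit 10788 to 11477, against 12316 and 12551. These sums follow the most abundant members and were not tested. The ratio of the large to the small sum lay between 1.45 and 1.48 in Th9 libraries and between 1.43 and 1.51 in Th0 libraries of that table, so the groups overlapped. In the table with Th17 it was 1.48, 1.54 and 1.55 in Th17 libraries and 1.47, 1.51 and 1.43 in Th0 libraries, with 2 of the 3 Th17 libraries above every Th0 library.

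**Figure D1:**
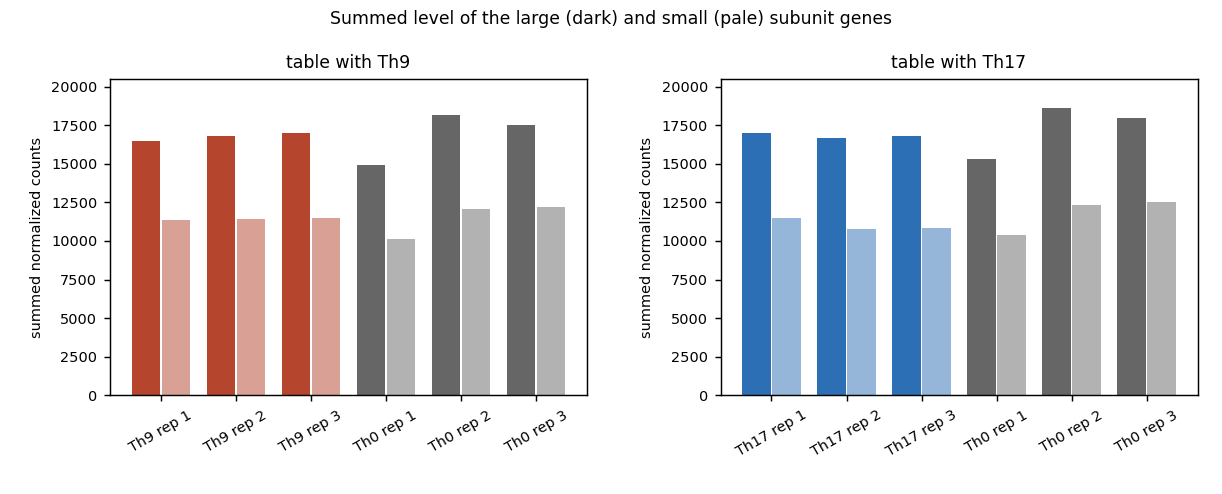
Summed normalized counts (y axis) of the 47 large subunit genes (dark bars) and the 29 small subunit genes (pale bars) in each library (x axis), in the table with Th9 (left) and the table with Th17 (right). Th0 replicate 1 has the lowest sums in both tables, with 14898 and 10115 in the table with Th9.

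In Th9 cocultures few members changed, in both directions, and the changes were small. At a Benjamini-Hochberg adjusted p under 0.05 (limma over 14475 genes), 11 of the 76 members were called, 7 higher and 4 lower than in Th0 cocultures. That is 14.5% of members, while 25.2% of all genes tested were called, 13.4% higher and 11.9% lower. Of the large subunit genes 5 were higher and 1 lower, and of the small subunit genes 2 were higher and 3 lower. The median log2 fold change was 0.07 for the large and 0.03 for the small subunit, beside -0.01 for all genes tested. The fold change of 50 of the 76 members was within 20% of no change. Without Th0 replicate 3, or without Th9 replicate 1, 2 or 3, the large subunit had 2, 1, 1 and 3 calls. In the same order the small subunit had 0, 0, 1 and 2. Without Th0 replicate 2 the large and the small subunit had 7 and 2. For all genes, only the range of calls over such fits is given, further below. With every library scaled to the same total, the calls were 7 higher and 0 lower in the large subunit, 3 higher and 0 lower in the small subunit, and 2245 higher and 795 lower among all genes. Members whose Th9 and Th0 libraries did not overlap numbered 17 with Th9 higher and 5 with Th9 lower, where 21.4% of all genes did not overlap with Th9 higher and 19.2% with Th9 lower.

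**Figure D2:**
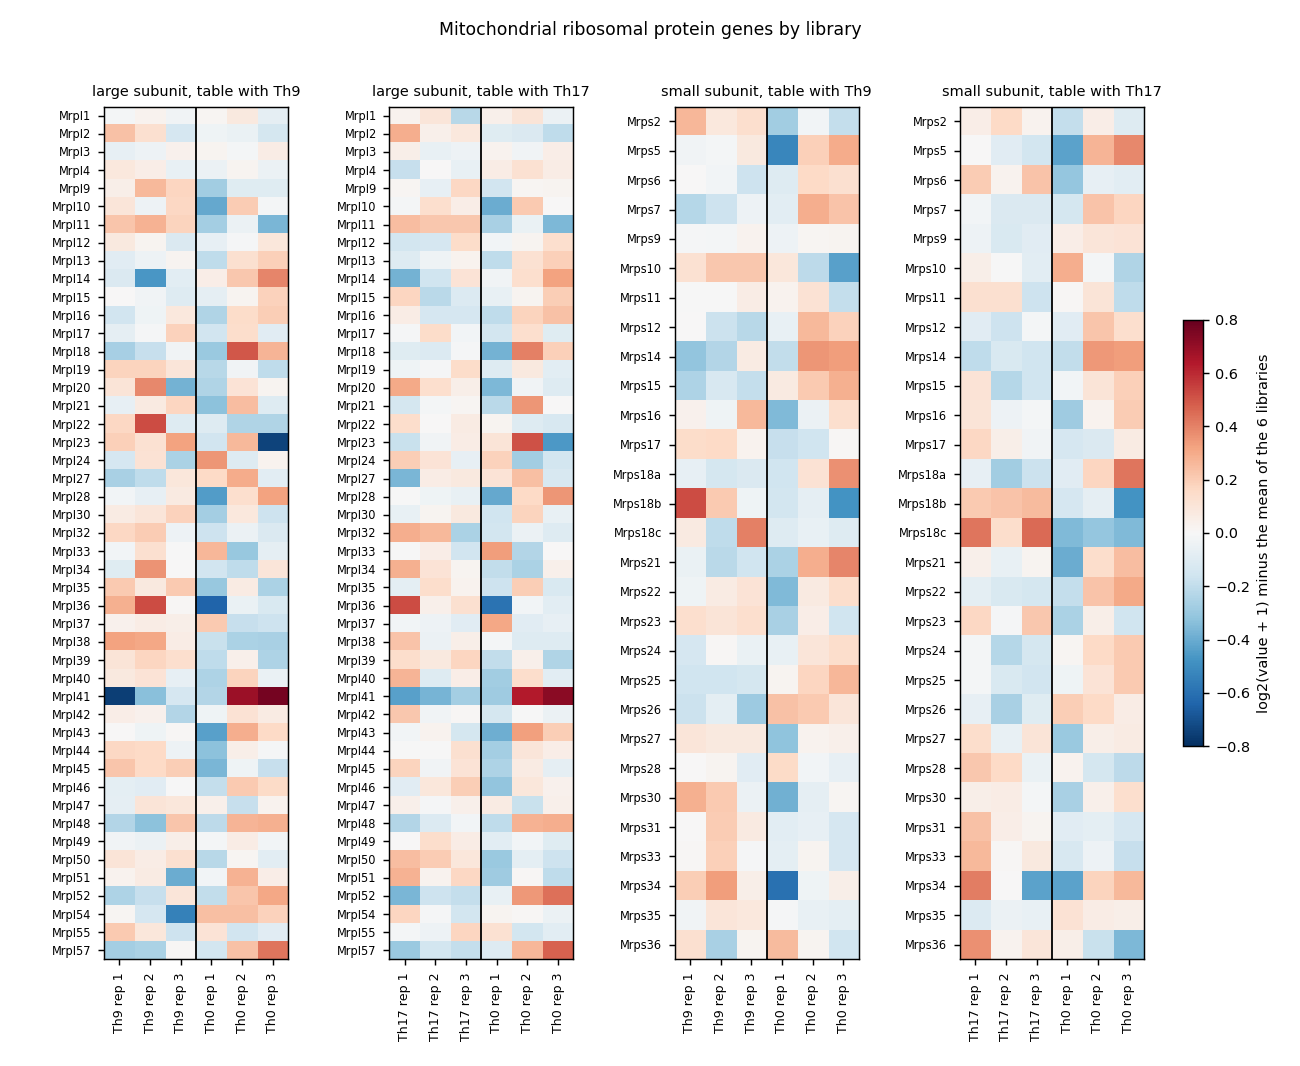
Each member (rows) in each library (columns) as log2(normalized count + 1) minus the mean of the 6 libraries of its table, for both subunits and both tables; red is above that mean and blue below it. Mrpl41 stands out with high values in Th0 replicates 2 and 3, and many members are blue in Th0 replicate 1.

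Mrpl41 encodes a large subunit protein that bacteria lack and had the largest called change. Its values were 68, 91 and 105 normalized counts in Th9 cocultures, against 98, 186 and 197 in Th0 cocultures. The groups overlapped through Th0 replicate 1, the library that stands apart, and the other two Th0 libraries lay above all Th9 libraries. The log2 fold change was -0.82 ± 0.25 (SE, adjusted p = 0.0299), and -1.13 ± 0.17 without Th0 replicate 1 (adjusted p = 3.8e-05). The gene lies at chr2:24974117-24975098 and none of its exons overlaps another gene.

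Mrpl38, a mitochondria-specific protein near the central protuberance of the large subunit, was the member with the smallest adjusted p. It had 655, 650 and 546 normalized counts in Th9 cocultures, against 464, 441 and 439 in Th0 cocultures. All Th9 libraries lay above all Th0 libraries, and the log2 fold change was 0.46 ± 0.10 (SE, adjusted p = 0.00462). Of the 11 called members it was the one that stayed called whichever of the 6 libraries was left out, with adjusted p up to 0.0404. Mrpl11, whose bacterial relative forms the base of the stalk where translation factors bind, had 196, 204 and 190 normalized counts in Th9 cocultures and 139, 162 and 130 in Th0 cocultures. Its groups did not overlap either, and its log2 fold change came to 0.46 ± 0.12 (SE, adjusted p = 0.0192). Mrpl45, known for holding the ribosome to the inner membrane near the tunnel exit, had 418, 400 and 410 normalized counts in Th9 cocultures and 278, 349 and 315 in Th0 cocultures. The Th9 libraries were tightly grouped above the Th0 libraries, and its log2 fold change was 0.39 ± 0.10 (adjusted p = 0.0177). Mrpl35 and Mrpl19, both with bacterial relatives, rose by 0.33 and 0.30 on the log2 scale (adjusted p = 0.0443 and 0.0422). Exons of Mrpl19 overlap those of Gcfc2 on the other strand by 1962 bp.

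In the small subunit, Mrps15, the relative of a bacterial protein that binds ribosomal RNA early in assembly, fell. Its values were 377, 410 and 393 normalized counts in Th9 cocultures and 471, 519 and 546 in Th0 cocultures. No Th9 library reached a Th0 library, and the log2 fold change was -0.38 ± 0.09 (SE, adjusted p = 0.0115). Mrps26, a protein that bacteria lack, had 201, 215 and 185 normalized counts in Th9 cocultures and 267, 262 and 243 in Th0 cocultures, also without overlap, and a log2 fold change that came to -0.36 ± 0.11 (adjusted p = 0.0302). Mrps25, likewise without a bacterial relative, fell by 0.31 on the log2 scale (log2 fold change -0.31, adjusted p = 0.0259), and its exons overlap those of Nr2c2 on the other strand by 4590 bp. Mrps10, a relative of a bacterial protein of the small subunit's head, rose. It had 683, 727 and 729 normalized counts in Th9 cocultures and 668, 543 and 463 in Th0 cocultures, with its highest Th0 value in replicate 1, and a log2 fold change of 0.37 ± 0.12 (adjusted p = 0.0393) that became 0.51 without that library. Mrps2, with 501, 443 and 458 normalized counts in Th9 cocultures and 344, 411 and 366 in Th0 cocultures, rose by 0.32 on the log2 scale (adjusted p = 0.0328) without overlap of the groups.

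**Figure D3:**
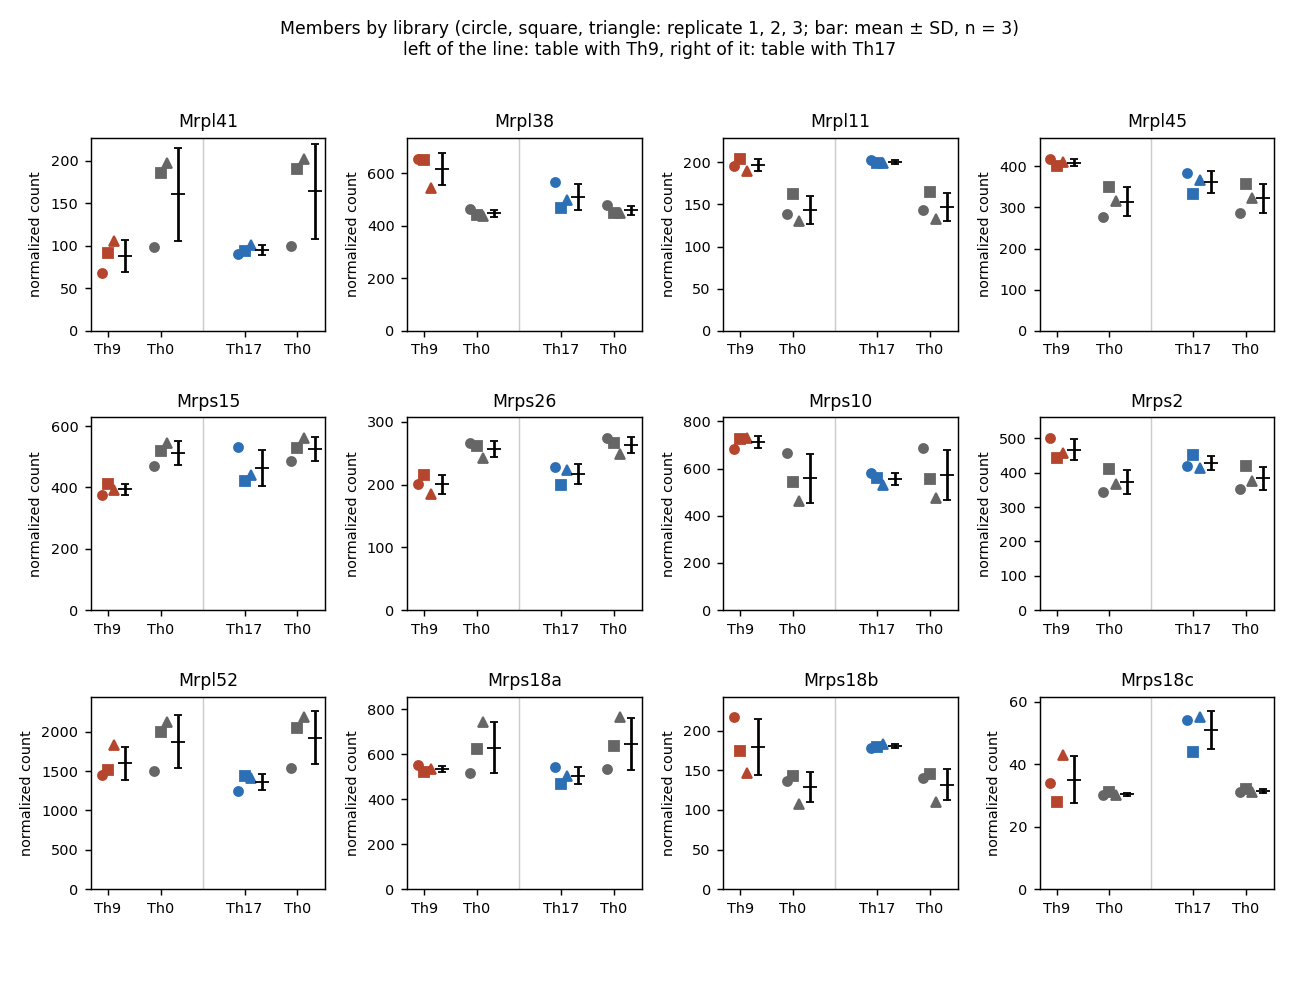
Normalized counts (y axis, from 0) of 12 members in each library, Th9 and Th0 left of the line and Th17 and Th0, as scaled in the other table, right of it; marks are replicates 1 to 3 and bars are mean ± SD (n = 3). Mrpl38 and Mrpl45 are higher in every Th9 library than in every Th0 library, Mrps15 and Mrps26 lower, and for Mrpl41 one Th0 library lies with the Th9 and Th17 libraries.

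Members just short of the threshold were Mrpl39 (log2 fold change 0.27, adjusted p = 0.0558), Mrpl9 (0.32, adjusted p = 0.0575) and Mrpl54 (-0.44, adjusted p = 0.0647) of the large subunit. In the small subunit they were Mrps18b (0.46, adjusted p = 0.0567), Mrps30 (0.30, adjusted p = 0.0852) and Mrps7 (-0.29, adjusted p = 0.11). Mrpl12, which forms the stalk and is also known to bind the mitochondrial RNA polymerase, had 290, 279 and 253 normalized counts in Th9 cocultures and 262, 273 and 293 in Th0 cocultures, and the groups overlapped. Mrps12, the relative of the bacterial protein of the decoding centre, had a log2 fold change of -0.26 ± 0.15 (adjusted p = 0.243).

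**Figure D4:**
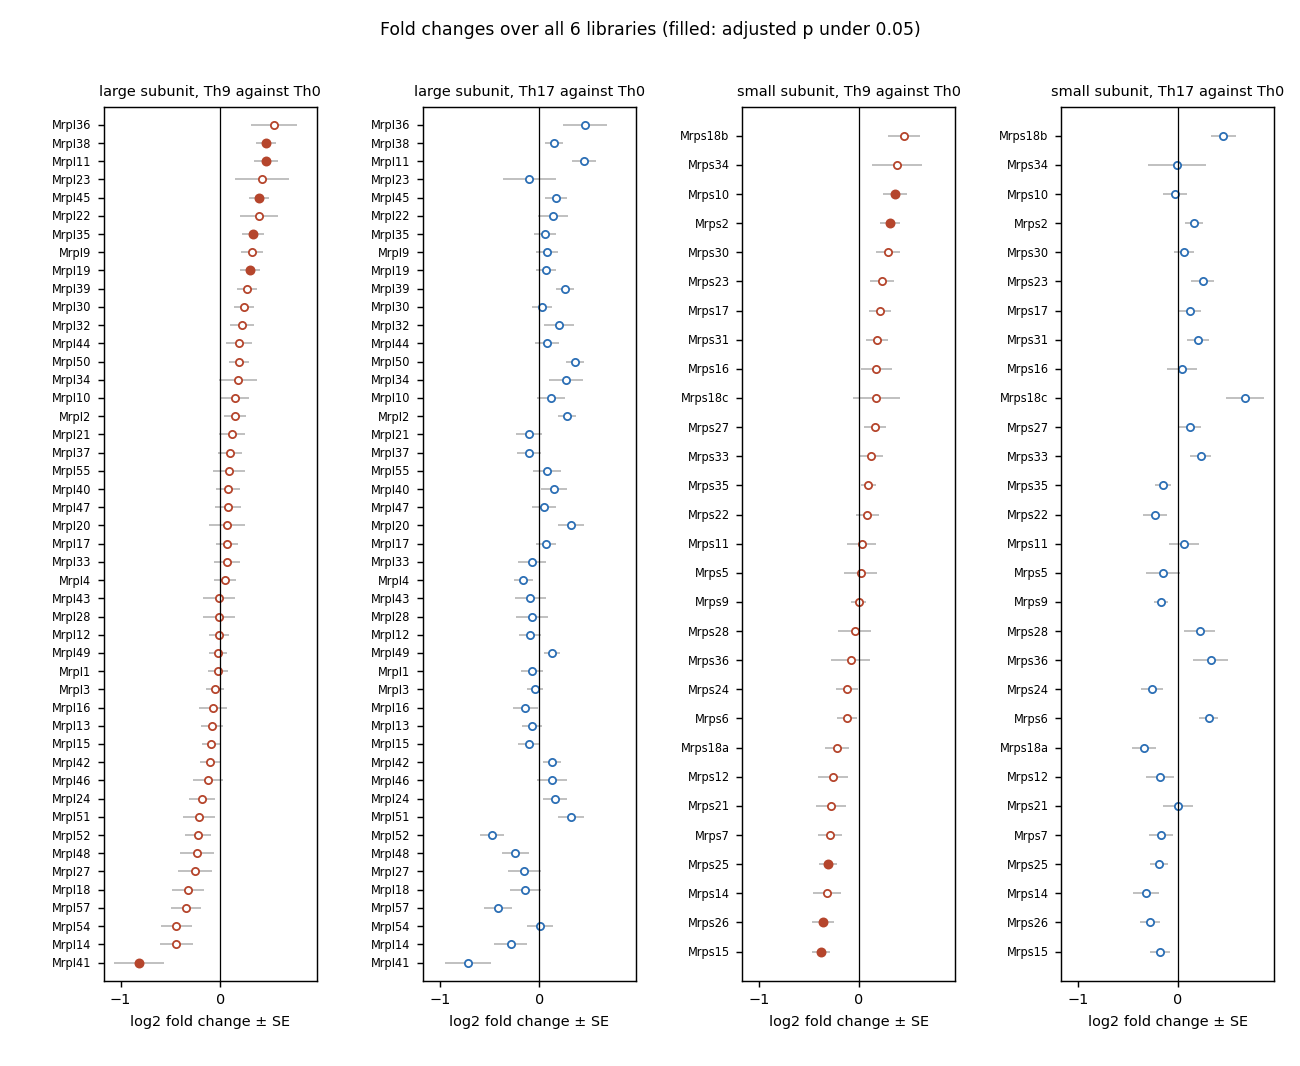
Log2 fold change ± SE (x axis) of each member (rows, in the order of the Th9 comparison) over all 6 libraries, for both subunits and both comparisons; filled points have an adjusted p under 0.05. In the Th9 comparison 11 points are filled, from Mrpl41 at -0.82 to Mrpl38 and Mrpl11 at 0.46, and in the Th17 comparison 0.

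Leaving out Th0 replicate 1 more than doubled the calls in Th9 cocultures and turned their balance to lower. Many members were low in that library, and this was part of the reason to leave it out. More lower calls without it are therefore no separate result. Without it 25 members were called (32.9%), 6 higher and 8 lower in the large subunit and 3 higher and 8 lower in the small subunit. Among all genes 37.1% were then called, 18.1% higher and 19.1% lower, so the members' share was below that of all genes in both fits. All 11 members called with all libraries were among the 25, and 14 were added. Of these 14, 12 were lower: Mrpl14, Mrpl57, Mrps14, Mrpl18, Mrps7, Mrps21, Mrpl48, Mrpl52, Mrps18a, Mrpl13, Mrpl28 and Mrps5. Mrpl18 shows how. It had 1262, 1332 and 1490 normalized counts in Th9 cocultures and 1235, 2142 and 1835 in Th0 cocultures, so that replicate 1 alone lay below the Th9 libraries. Its log2 fold change was -0.32 (adjusted p = 0.167) with all libraries and -0.55 (adjusted p = 3.7e-05) without that one. The median over members without Th0 replicate 1 was -0.01 for the large and 0.03 for the small subunit.

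**Figure D5:**
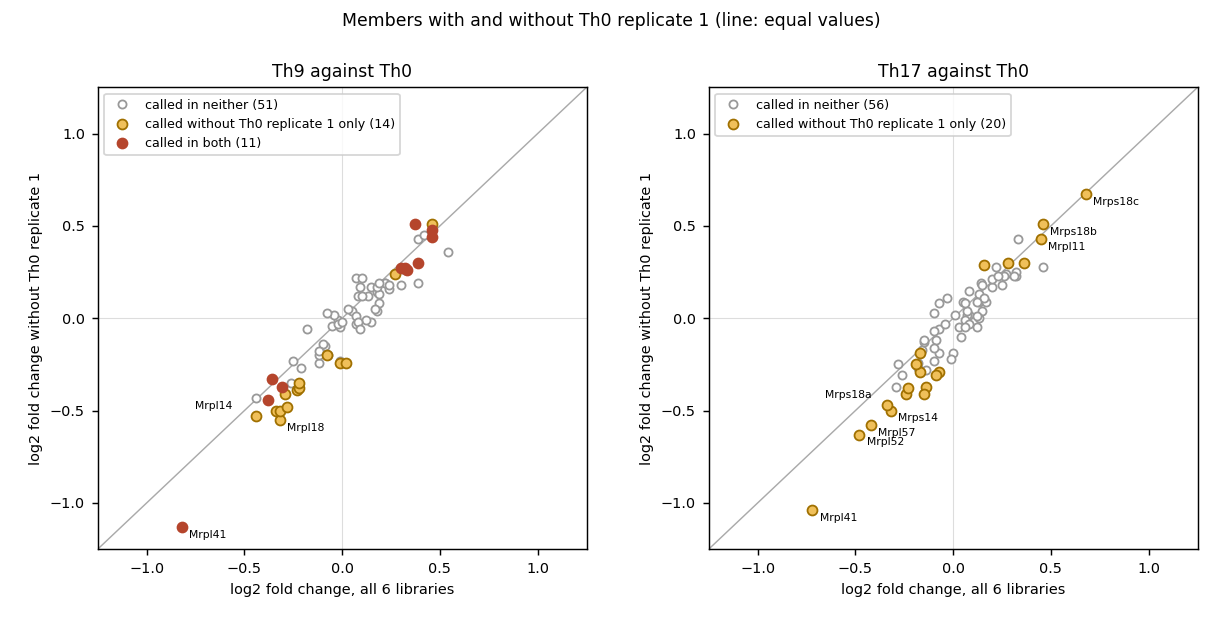
Log2 fold change of each member without Th0 replicate 1 (y axis) against that over all 6 libraries (x axis), for Th9 (left) and Th17 (right); colours show in which fit the adjusted p was under 0.05 and the line marks equal values. Calls in both fits number 11 for Th9, and 14 (Th9) and 20 (Th17) members are called once that library is left out.

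T cell RNA differed between the groups. Of 17 T cell markers, 13 were tested in the table with Th9, and 11 of them were higher in Th9 cocultures, where 13.4% of all genes were. Their summed level was 1188 to 1672 normalized counts in Th9 libraries and 90 to 183 in Th0 libraries, and Cd6 and Trbc1 were at 0 in all Th0 libraries. The filter on low values took the mean over all 6 libraries, so markers this low in Th0 could pass it through Th9 alone. The count of markers called higher is therefore no separate result. Ptprc, the pan-leukocyte gene, had 551, 447 and 401 normalized counts in Th9 cocultures and 51, 25 and 6 in Th0 cocultures. The part of these cells in the members' differences was not tested, and in bulk RNA fewer cells of a type and less RNA per cell cannot be told apart. In the table with Th17, 10 of the markers were listed, 4 were tested and 0 called by limma, with or without Th0 replicate 1, and their sum was 57 to 87 normalized counts in Th17 libraries and 88 to 173 in Th0 libraries. Markers of B, plasma, myeloid, NK and CD8 T cells summed to 154 to 181 normalized counts in Th9 libraries and 118 to 367 in Th0 libraries, and of 5 tested Cd14 was higher in Th9 cocultures and Lyz2 and Igkc were lower (log2 fold change 0.86, -3.36 and -2.66). In the table with Th17 they summed to 69 to 80 in Th17 libraries and 120 to 378 in Th0 libraries, and of 5 tested Ighm and Igkc were lower in Th17 cocultures (-4.59 and -3.39). Both sums were highest in Th0 replicate 1. Ighm, the one of these in Th17 that was tested without that library, was still lower (-3.99, adjusted p = 2.5e-05). Igkc had 1, 0 and 3 normalized counts in Th17 cocultures and 47, 15 and 11 in Th0 cocultures. In the limma fits with a library left out that tested it, Igkc was never called (adjusted p 0.0575 to 0.143). Ighm and Igkc passed the filter on low values through their Th0 values, so these calls are no separate result. In Th9 cocultures 0 of these markers were called lower without Th0 replicate 1, and 1 was called higher. The part of these cells in the members' differences was not tested either.

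In Th17 cocultures 0 of the 76 members passed the threshold when all libraries were used (limma over 14342 genes), where 1.58% of all genes did, 1.19% higher and 0.39% lower. At an unadjusted p under 0.05 there were 17 members, 9 higher and 8 lower, where 18.3% of all genes lay under that value. The median log2 fold change was 0.06 for the large and 0.00 for the small subunit, beside 0.00 for all genes, and the fold change of 58 members was within 20% of no change. The Th17 and Th0 libraries did not overlap for 13 members with Th17 higher and 7 with Th17 lower, where 12.8% and 10.6% of all genes did so in these directions. Leaving out a library other than Th0 replicate 1 gave 0 calls of members, except 1 without Th0 replicate 2. Closest to the threshold in the large subunit were Mrpl52 (log2 fold change -0.48, adjusted p = 0.0773), Mrpl50 (0.36, adjusted p = 0.0798) and Mrpl11 (0.45, adjusted p = 0.0827). Mrpl52 had 1247, 1432 and 1408 normalized counts in Th17 cocultures and 1542, 2041 and 2183 in Th0 cocultures, without overlap. Mrpl11 had 203, 199 and 199 normalized counts in Th17 cocultures and 143, 165 and 133 in Th0 cocultures, again without overlap.

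Without Th0 replicate 1, 20 members were called in Th17 cocultures (26.3%), where 16.6% of all genes were, 6.85% higher and 9.7% lower. The large subunit had 4 higher and 7 lower, and the small subunit 2 higher and 7 lower. These calls rest in the same way on leaving out a library in which many members were low. The lower members were Mrpl41, Mrpl52, Mrpl57, Mrpl48, Mrpl18, Mrpl43 and Mrpl28 of the large subunit and Mrps14, Mrps18a, Mrps5, Mrps22, Mrps7, Mrps25 and Mrps9 of the small subunit. Mrpl41 had 90, 94 and 101 normalized counts in Th17 cocultures and 100, 190 and 202 in Th0 cocultures. Replicate 1 was again the Th0 library at the level of the Th17 libraries, and the log2 fold change was -0.72 (adjusted p = 0.141) with it and -1.04 (adjusted p = 0.0001) without it. Mrps14, the relative of a bacterial protein of the small subunit's head, had 684, 722 and 703 normalized counts in Th17 cocultures and 687, 1002 and 991 in Th0 cocultures, and its log2 fold change without replicate 1 was -0.50 (adjusted p = 0.00011). The higher members were Mrpl11, Mrpl2, Mrpl24, Mrpl50, Mrps18b and Mrps18c. The 2 comparisons share their Th0 libraries, so a value in one is no independent repeat of the other.

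The log2 fold changes of the 3 relatives of bacterial protein S18 did not share a sign, and with all libraries none of the 3 was called in either comparison. Vertebrates have 3 such genes, and in human structures the product of MRPS18B and that of MRPS18C lie in the small subunit. Mrps18c had 54, 44 and 55 normalized counts in Th17 cocultures, against 31, 32 and 31 in Th0 cocultures. Every Th17 library was higher, yet at this low level the log2 fold change of 0.68 ± 0.19 (SE) had an adjusted p of 0.108, and 0.038 without Th0 replicate 1 (log2 fold change 0.67). Mrps18b had 178, 180 and 183 normalized counts in Th17 cocultures and 140, 146 and 110 in Th0 cocultures, and Th17 libraries were all higher, with a log2 fold change of 0.46 ± 0.13 (adjusted p = 0.109) and 0.51 without that library (adjusted p = 0.0166). Mrps18a had 542, 468 and 504 normalized counts in Th17 cocultures and 532, 638 and 764 in Th0 cocultures, which overlapped, with a log2 fold change of -0.34 (adjusted p = 0.18) and -0.47 without Th0 replicate 1 (adjusted p = 0.0023). In Th9 cocultures Mrps18a had 551, 522 and 532 normalized counts and Mrps18b 217, 174 and 147, against 517, 625 and 744 for Mrps18a and 136, 143 and 108 for Mrps18b in Th0 cocultures. There the log2 fold changes with all libraries were -0.22, 0.46 and 0.18 for Mrps18a, Mrps18b and Mrps18c (adjusted p = 0.206, 0.0567 and 0.622). The calls without Th0 replicate 1 were lower for Mrps18a (-0.35, adjusted p = 0.00396) and higher for Mrps18b (0.51, adjusted p = 0.0201), and Mrps18c was not called (0.17, adjusted p = 0.635). Among Th0 libraries Mrps18a was lowest in replicate 1, so its lower calls without that library are no separate result. Exons of Mrps18b overlap Gm16279 on the other strand by 638 bp and those of Mrps18c overlap Gm43511 on the same strand by 250 bp.

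Among 31 of the 76 members exons overlap those of another gene, and 3 of the 11 members called in Th9 cocultures are among them, Mrpl19, Mrps25 and Mrps26, the last of these by 8 bp.

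The subunit proteins whose genes have other names gave 1 call in Th9 cocultures among 5, where 25.2% of all genes were called. Aurkaip1, a small subunit protein, had 983, 1050 and 1128 normalized counts in Th9 cocultures and 1161, 1515 and 1565 in Th0 cocultures, without overlap, and its log2 fold change was -0.41 (adjusted p = 0.0186). Dap3, the GTP-binding protein of the small subunit, had a log2 fold change of 0.17 (adjusted p = 0.188), and Ptcd3, Chchd1 and Gadd45gip1 had 0.13, 0.19 and -0.05 (adjusted p = 0.239, 0.288 and 0.797). In Th17 cocultures 0 of the 5 were called by limma with all libraries, and Aurkaip1 was lower without Th0 replicate 1 (-0.44, adjusted p = 0.00013). Among all genes 1.58% were called in Th17 cocultures with all libraries and 16.6% without that one. The ribosomal RNAs themselves, mt-Rnr1 and mt-Rnr2, were highest in Th0 replicate 1. For mt-Rnr1 the values were 417622, 434594 and 299463 normalized counts in Th9 cocultures and 988912, 383043 and 298222 in Th0 cocultures, and the log2 fold change was -0.35 (adjusted p = 0.669) with all libraries and 0.16 (adjusted p = 0.393) without replicate 1. For mt-Rnr2 the log2 fold changes in Th9 cocultures were -0.23 and 0.11. In Th17 cocultures mt-Rnr1 had 721295, 530883 and 527745 normalized counts, against 1017055, 391331 and 306034 in Th0 cocultures, and was higher without Th0 replicate 1 (log2 fold change 0.76, adjusted p = 0.00253). The high share of values on these RNAs was part of the reason to leave that library out. The higher call without it is therefore no separate result.

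Factors that assemble the mitochondrial ribosome or process and modify its RNA gave 4 higher and 1 lower among 24 tested in Th9 cocultures (median log2 fold change 0.08), where 13.4% of all genes were higher and 11.9% lower. Noa1, a GTPase needed for mitochondrial translation in mouse cells, had 495, 486 and 411 normalized counts in Th9 cocultures and 285, 313 and 263 in Th0 cocultures. The groups were well apart, and the difference was 0.69 ± 0.11 on the log2 scale (SE, adjusted p = 0.00067), which stayed 0.69 without Th0 replicate 1. Ngrn, known from human cells for the large subunit's RNA, rose by 0.46 on the log2 scale (adjusted p = 0.0109). Mterf4, which brings the methyltransferase NSUN4 to the ribosome, had 416, 402 and 466 normalized counts in Th9 cocultures and 545, 757 and 652 in Th0 cocultures and fell, with a log2 fold change of -0.59 (adjusted p = 0.00339). Its partner Nsun4 rose, with 154, 170 and 147 normalized counts in Th9 cocultures and 120, 109 and 121 in Th0 cocultures (log2 fold change 0.42, adjusted p = 0.0301). With single libraries left out, Nsun4 was called in 1 of 6 limma fits (adjusted p up to 0.141) and Mterf4 in all 6 (up to 0.025). The other called member of that list was Ddx28, an RNA helicase (0.42, adjusted p = 0.0424). It was not called without Th0 replicate 1 (0.32, adjusted p = 0.0624) or with any other library left out. Translation factors gave 3 higher and 0 lower among 16 tested, with Oxa1l, the insertase that receives new chains at the inner membrane, at 0.44 (adjusted p = 0.015), Mtfmt, which formylates the initiator tRNA, at 0.40 (adjusted p = 0.0461) and Lrpprc, which stabilises mitochondrial mRNAs, at 0.28 (adjusted p = 0.0404). In Th17 cocultures 0 of the 24 and 0 of the 16 were called by limma with all libraries, and without Th0 replicate 1 there were 2 higher and 2 lower of the assembly factors and 1 higher of the translation factors. Among all genes 1.58% were called there with all libraries, and 6.85% were higher and 9.7% lower without that one. Noa1 had 399, 393 and 388 normalized counts in Th17 cocultures, against 293, 320 and 270 in Th0 cocultures, and a log2 fold change of 0.42 (adjusted p = 0.0526).

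Of the genes that transcribe mitochondrial DNA, 1 of 6 tested was called in Th9 cocultures, Tfb2m (0.42, adjusted p = 0.0326), and 0 in Th17 cocultures by limma, with 1 lower without Th0 replicate 1. The mitochondrially encoded mRNAs, 7 tested, gave 0 calls in either comparison with all libraries, with median log2 fold changes of -0.05 in Th9 cocultures and 0.25 in Th17 cocultures. Without Th0 replicate 1, in which they were highest, 4 were higher in Th9 cocultures (median 0.35) and 7 in Th17 cocultures (median 0.66). Among all genes 18.1% and 6.85% were then higher, in the same order. That library was left out in part for its high share of mitochondrial ribosomal RNA, and these mRNAs were high with it. Their higher calls are therefore no separate result. Transcription factors tied to nuclear genes of mitochondria gave 3 higher and 1 lower among 8 tested in Th9 cocultures. Nrf1 had 587, 558 and 668 normalized counts in Th9 cocultures and 813, 715 and 828 in Th0 cocultures and fell (log2 fold change -0.38, adjusted p = 0.0142). Myc rose, with 12825, 13481 and 10269 normalized counts in Th9 cocultures and 4288, 4766 and 4837 in Th0 cocultures (log2 fold change 1.39, adjusted p = 6.8e-06). In Th17 cocultures Myc was the single call of the 8, with a log2 fold change of 0.55 (adjusted p = 0.0147). Over all genes 25.2% were called in Th9 cocultures and 1.58% in Th17 cocultures, and 37.1% and 16.6% without Th0 replicate 1.

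Beside the mitochondrial ribosome, the cytoplasmic ribosomal proteins gave 18 higher and 2 lower among 83 tested in Th9 cocultures, at a median of 0.18 (log2 fold change), and 6 higher and 0 lower in Th17 cocultures, with a median of 0.09. Nuclear genes of oxidative phosphorylation gave 5 higher and 12 lower among 77 tested in Th9 cocultures, with a median of -0.07, and 1 higher and 0 lower among 78 in Th17 cocultures, with a median of -0.01. Without Th0 replicate 1 the oxidative phosphorylation genes gave 7 higher and 27 lower in Th9 cocultures and 8 higher and 17 lower in Th17 cocultures, and the cytoplasmic ribosomal proteins 27 higher and 8 lower, and 20 higher and 14 lower, in the same order. The summed level of the cytoplasmic ribosomal proteins was 354379 to 364819 normalized counts in Th9 libraries and 277690 to 356740 in Th0 libraries, the lowest in replicate 1. Over all genes the calls in Th9 cocultures were 13.4% higher and 11.9% lower, and 18.1% and 19.1% without Th0 replicate 1. In Th17 cocultures they were 1.19% higher and 0.39% lower, and 6.85% and 9.7% without it. No difference between these lists and the members was tested.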

How the data were processed

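Total RNA of cocultured LLC1 cells was measured in 9 libraries, made per the labels' protocols from 1 µg of RNA with a stranded SMARTer kit. STAR 2.4.0a, featureCounts 1.4.5-p1 and DESeq2 are named per the submitters' processing notes, with builds mm10 and GRCm38; whether counting used the strand is not given in the sources used here, so overlapping genes can share reads. The 2 tables deposited by the authors (18816 genes with Th9, 18511 with Th17) hold rounded scores, namely counts that were divided by a size factor for each library, separately in each table. The factors were read from the steps of low values, and depth is the summed value divided by the factor. The number of reads behind a value limits its precision. No column of values was left unused (0).

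Because the values are not raw counts, limma-trend (limma 3.58.1, R 4.3.3) took log2(value + 1), kept genes whose mean over a table's 6 libraries was at least 10, and fitted group alone, two-sided, with Benjamini-Hochberg adjustment over all genes and an adjusted p under 0.05 as a call. Fold changes are on that scale and understate changes of low genes. Each comparison stayed within its table. The fit was tested on simulated data. For each comparison 16 alternatives were run: pseudocounts 0.5 and 10, no filter, a mean of at least 50, 3 other scalings, array weights, the replicate number as a block, removal of GC content and length trends, and leaving out each library.

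Named members are those with the largest called change (up to 6 per direction and subunit), the 3 nearest the threshold, the extremes of level per kb, and Mrpl12 and Mrps12; from other lists, up to 3 called per direction. Other genes, among them the Mrps18 genes, Mrpl18, Mrps14, Mrpl2, Mrpl24, Nsun4, Ddx28, Mtfmt, Lrpprc, Tfb2m, Nrf1 and Myc, were chosen after their values were seen. The members and all lists were chosen with earlier results of these data known. Exon lengths and overlaps come from GENCODE M21 (GRCm38), promoters from RefSeq; promoters were not printed where a run of 25 bases matched an annotated transcript of their gene or another protein-coding gene starts within them. Proteins were not used here.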

Additional observations from a re-analysis of the deposited data

How the results depend on the processing

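Calls of members in Th9 cocultures, 6 in the large and 5 in the small subunit, depended on single libraries. Leaving out a library gave 1 to 14 calls in the large subunit, 0 to 11 in the small subunit and 1853 to 5336 among all genes (3653 with all libraries), the most without Th0 replicate 1. In Th17 cocultures it gave 0 to 11, 0 to 9 and 16 to 2352 (226 with all libraries), again the most without Th0 replicate 1, and the small subunit median lay between -0.10 and 0.12. Array weights, which lower the weight of that library, gave 21 and 13 calls (6628 genes) for Th9 and 11 and 12 (3361 genes) for Th17, with a small subunit median of -0.12. Scaling each library to the same total moved the median of all genes in the Th9 comparison to 0.10, against -0.01, the medians to 0.18 (large) and 0.14 (small), and the calls to 7 higher and 0 lower (large), 3 higher and 0 lower (small, 3 calls) and 2245 higher and 795 lower (all genes); relative to that shift the members stayed close to all genes. Mrpl41, Mrps15, Mrps25 and Mrps26 were then not called, with the same sign. Totals made equal after removal of 3 RNA genes gave 4 higher and 2 lower in the small subunit for Th9, and for Th17 they gave 2 calls in the large subunit and 447 genes; quantile normalization gave 2 and 473, and the same total per library 139 genes (119 higher, 20 lower). Removing GC content and length trends left 3 and 3 calls for Th9. For Th9 the number of all genes called is not given here for this setting or for totals without the 3 RNA genes. The cause of these shifts was not tested.

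Same-numbered libraries did not deviate together (correlations of deviations 0.111, -0.011 and 0.145 for Th9, -0.0547, -0.0795 and 0.039 for Th17). Not every library correlated best with its own number. With the replicate number as a block the large subunit had 10 calls for Th9 and 1 for Th17, and the small subunit 7 and 0. The share of all genes called with the block is not given here, so these counts are no result about the members.

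Without Th0 replicate 1 the sign turned for 9 members in Th9 cocultures and 10 in Th17 cocultures, none of them called with all libraries; Mrps5 went to -0.24 in Th9 cocultures, against 0.02, and was then called lower. In Th17 cocultures the log2 fold change ran from -0.35 to 0.13 for Mrpl23, -0.22 to 0.20 for Mrps34 and -0.19 to 0.13 for Mrps21 when single libraries were left out. Other named genes were followed under all alternatives. In Th9 cocultures the sign turned for Gadd45gip1 (0.06 with the same total, 0.03 with array weights) and Mrpl12 (0.10 with the same total, 0.03 with the 3 RNA genes removed from it). It also turned there for mt-Rnr1 (0.22) and mt-Rnr2 (0.14) with array weights. In Th17 cocultures mt-Rnr1 and mt-Rnr2 came to 0.00 with quantile normalization, which sets genes of equal rank to equal values, so no sign is read from it. Among these named genes, signs turned in Th17 cocultures for Chchd1 (-0.06 with array weights) and for mt-Rnr2 with GC content and length trends removed (-0.08). Leave-one-out ranges for them: Gadd45gip1 in Th9 cocultures -0.12 to 0.01, Mrpl12 in Th9 cocultures -0.05 to 0.04, mt-Rnr1 in Th9 cocultures -0.70 to 0.16, mt-Rnr2 in Th9 cocultures -0.49 to 0.11, Chchd1 in Th17 cocultures -0.03 to 0.14, Ptcd3 in Th17 cocultures -0.06 to 0.01, mt-Rnr1 in Th17 cocultures -0.10 to 0.76, mt-Rnr2 in Th17 cocultures -0.25 to 0.35.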
